A study of Drosophila melanogaster with 30 samples.

Results

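The spliceosomal snRNA genes and the scaRNA genes of Drosophila melanogaster were chosen by their FlyBase symbols, which begin with snRNA: or scaRNA:. The rule gave 48 of the 17807 genes listed, 31 snRNA and 17 scaRNA genes, with 18 on chromosome arm 2L, 4 on 2R, 8 on 3L, 15 on 3R and 3 on X. Pools of 6 whole adult Canton S females, the wild-type strain that all groups share, were warmed or cooled in a water bath at 0.25°C per min to 4°C (severe cold), 10°C (moderate cold), 34°C (moderate heat) or 37°C (severe heat), and control pools stayed at 25°C. Each of the 5 temperatures had 3 rRNA-depleted (rRNA−) and 3 polyA-selected (polyA+) libraries, numbered 1 to 3, which gave 30 libraries. The labels do not say whether libraries of the 2 kinds with the same number came from the same flies. The labels and the methods differ on which pools were then held for 5 min, those at 34°C and 37°C in the labels and those at 4°C and 37°C in the methods, so temperature and time under stress cannot be told apart.

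The snRNAs are short nuclear RNAs that, bound by proteins, form the spliceosome. In the major spliceosome U1 binds the 5′ splice site, U2 the branch point, and U4, U5 and U6 join as a tri-snRNP, in which U4 holds U6 until the catalytic core forms. U11, U12, U4atac and U6atac stand in for U1, U2, U4 and U6 at the rare minor introns, whereas U7 acts on histone mRNA ends and 7SK keeps the elongation kinase P-TEFb inactive. The scaRNAs guide the 2′-O-methylation (symbols with Me) or pseudouridylation (symbols with Psi) of snRNAs. None of these RNAs carries a poly(A) tail as a mature molecule, and flies have several genes for each of U1, U2, U4, U5 and U6.

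The rRNA− libraries held 4241358 to 12002473 counts, or 2306608 to 6873601 after 136 nuclear rRNA genes were left out, and the polyA+ libraries held 18475066 to 32009772 counts on the same basis. A single rRNA− library stood apart. Nuclear rRNA took 8.60% of the counts of 4°C replicate 3 and 41.8% to 56.3% of the counts of the other 14 rRNA− libraries. As counts-per-million (CPM) of the library total without nuclear rRNA, the same library had 2015 CPM of snRNA, against 6480 to 30151 CPM in the others, and also the fewest counts of snoRNAs (704 CPM, against 3128 to 15432) and of 7SL, the RNA of the signal recognition particle (10649 against 41731 to 144059). Where leaving this library out changed a call, a direction or an order given below, the value without it stands beside the result, an alternative chosen after the values were seen. In the rRNA− libraries the markers fitted the labels. Yp1, Yp2 and Yp3, the female yolk proteins, lay between 4225 and 19945 CPM in every rRNA− library. Of the 7 male accessory gland and testis genes, 5 were at 0 in all of them, and Acp26Aa and Acp36DE did not pass 0.496. Hsp68, a heat shock gene, had 1586 to 6874 CPM at 34°C and 37°C, against 14.1 to 24.3 in the other rRNA− libraries. Act88F, a flight muscle gene, had 299 to 959 CPM in the rRNA− libraries. Some polyA+ libraries stood apart: replicate 2 at 10°C, replicates 2 and 3 at 34°C and replicates 1 and 2 at 37°C. They had 3314 to 6923 CPM of Act88F, against 31.9 to 247 in the other polyA+ libraries. Their 7SL lay at 2.35 to 6.12 CPM, against 11.1 to 80.3 in the others.

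In the rRNA− libraries 44 of the 48 genes had at least 1 count, 24 had a count in all 15, and 31 reached a mean of 10 counts. The 4 genes with none were snRNA:U7, scaRNA:MeU1:95C-A24, scaRNA:MeU1b-A234 and scaRNA:MeU2-C28. A count of 0 over these libraries allows up to 0.0454 CPM, taking 3 counts as the floor, and covers counting error only. Length went with detection. Of the 8 genes of 107 bp or less, 3 reached a mean of 10 counts, and these were the U6 copies, whereas 28 of the 40 longer genes did. The low genes included snRNA:U6atac (97 bp), with a single count in 1 library, and scaRNA:MeU5-G38 (101 bp), with 1 count in each of 2 libraries. Levels are compared between genes per length, as CPM per kilobase. On that scale the type sums averaged 43684 for U1, 12100 for U2, 6489 for U5, 4661 for 7SK, 795 for U11, 665 for U4, 444 for U4atac, 373 for U6 and 268 for U12, and the 17 scaRNA genes together 818. The order sets U6, a partner of U4 in the same particle, below U4, and the U6 transcript is the shortest of them.

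Because reads can match several copies of a type, the position of each copy was taken from the annotation (BDGP6, the dm6 assembly). The way the counts of the copies were shared out was examined first. How alike the copies are was not computed. The U1 copies that hold nearly all U1 counts are snRNA:U1:95Ca (3R, 23859467 to 23859630, minus strand), snRNA:U1:95Cb (3R, 23827870 to 23828033, plus strand) and snRNA:U1:21D (2L, 901491 to 901654, minus strand), each of 164 bp. In every library U1:95Ca and U1:95Cb took almost equal counts, with a ratio of 0.909 to 1.07. U1:21D took 0% to 1.53% of the U1 counts in the 6 libraries at 10°C and 25°C, 1.11%, 32.5% and 31.6% at 4°C, 10.4%, 26.7% and 27.1% at 34°C, and 6.78%, 32.5% and 31.9% at 37°C. The 3 genes of U6, which lie within 416 and 497 bp of their neighbours on 3R, showed the sharing-out in its plainest form: in each of the 15 libraries all U6 counts fell on a single copy. That copy was U6:96Aa in 5 libraries, U6:96Ab in 7, among them the 3 at 25°C, and U6:96Ac in 3. The level or change of a single U1, U2 or U6 gene is therefore uncertain, and the sum over a type is used for these types.

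**Figure D1:**
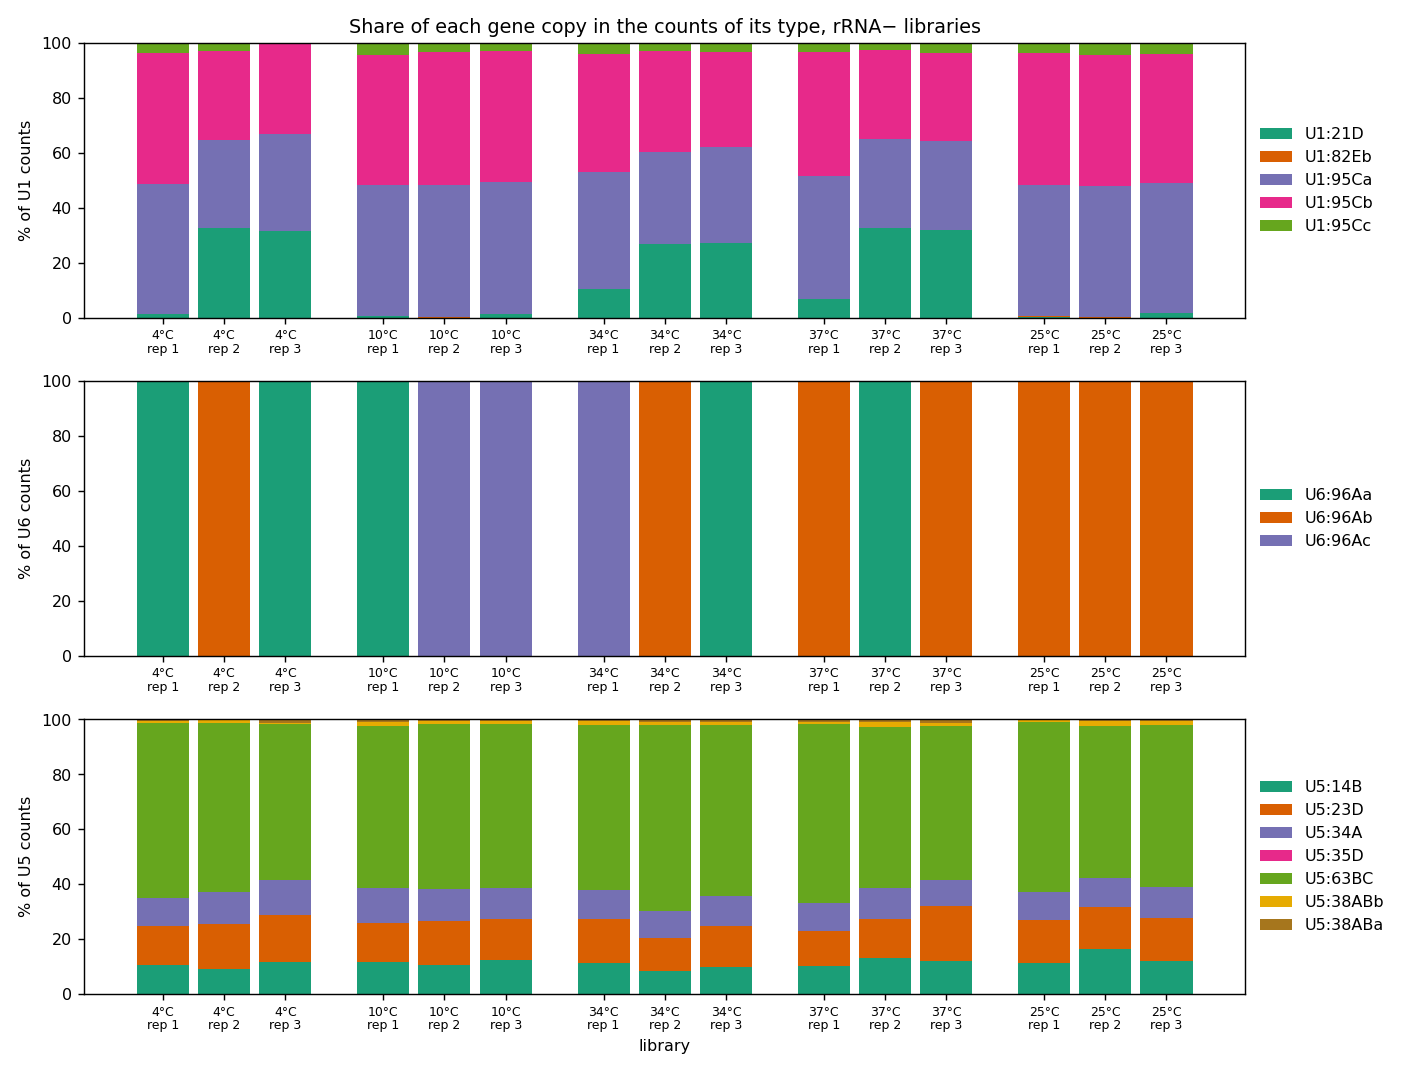
Share (%) of each gene copy in the counts of U1, U6 and U5 in the 15 rRNA− libraries, 3 at each temperature with 25°C on the right. All U6 counts of a library fell on 1 of its 3 copies, U1:21D ran between 0% and 32.5% of U1, and U5:63BC held 55.2% to 67.9% of U5 in every library.

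A second set of counts deposited for the same libraries, equalized in depth between library types and with most rRNA removed, set the types apart. Of the 44 genes with a count, 12 kept 4.54% or less of their counts there, and 32 kept 91.9% or more. The type sums of U1, U2 and U6 kept 0.238%, 0.318% and 0% of their counts, whereas U4 and U5 kept 98.2% each. How this second set was counted is not stated for reads that match several genes. U4:39B (2L, 21215036 to 21215178) held 72.7% to 86.4% of the U4 counts and U4:38AB the most of the rest, and U4:25F had at most 3 counts in a library. Among the 7 U5 genes U5:63BC (3L, 3090801 to 3090923) held 55.2% to 67.9%, U5:23D 11.9% to 20.2%, U5:14B 8.45% to 16.3% and U5:34A 9.43% to 12.9%, and U5:35D had a single count in all. Several of these genes lie head to head with a gene of another type: U2:34ABc and U5:34A are 286 bp apart on opposite strands, U5:14B and U2:14B 554 bp, U5:38ABa and U2:38ABb 571 bp, and U2:38ABa and U5:38ABb 608 bp.

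The question the design asks is how each temperature differs from 25°C. The flies were whole, so the counts mix all tissues, and fewer cells of a type and less RNA per cell cannot be told apart. At 34°C all 9 tested snRNA types lay higher than at 25°C in every library, and no type passed the test. Their log2 fold changes ran from 0.61 for U6 to 1.89 for U4 with a median of 1.44, where the median over all 9829 rows tested was -0.06. Groups did not overlap, with 34°C above, in 13.4% of all genes tested. A type or gene was called at an adjusted p under 0.05 and a fold of at least 2 in size. At 34°C 0.671% of all rows were called higher, and 0 of the 9 types. An unadjusted p under 0.05 was found for 3 of the 9 and for 21.5% of all rows. The share called lower was 0.163%. DESeq2's Wald test called 7SK alone, where it called 1.87% of all rows higher.

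From here on the values of genes and types are CPM scaled by TMM, a factor for each library that sets aside its most extreme genes, given in the order of replicates 1 to 3. U1, which recognises the 5′ splice site and is the most abundant type, had 7027, 5302 and 430.1 CPM at 4°C, 8317, 6120.1 and 7171 at 10°C, 9887, 20263 and 11236 at 34°C and 9655, 3750.4 and 7167 at 37°C, against 5416, 3854 and 5986 CPM at 25°C. The 34°C libraries were all higher than those at 25°C, with a log2 fold change of 1.44 ± 0.73 (SE, adjusted p = 0.272). U2, which binds the branch point, had 2438, 1845 and 159.7 CPM at 4°C, 2687, 1939 and 2296 at 10°C, 3932, 6967 and 4340.1 at 34°C and 1966, 1181 and 1819.8 at 37°C, against 1574, 1054 and 1973 CPM at 25°C. Again every 34°C library lay above every 25°C library, and the log2 fold change was 1.73 ± 0.70 (SE, adjusted p = 0.194).

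The U4, U5 and U6 RNAs of the tri-snRNP followed. U4 had 105, 65.4 and 4.87 CPM at 4°C, 108, 76.7 and 105 at 10°C, 144, 323 and 166 at 34°C and 98.8, 48.2 and 70.5 at 37°C, against 60.5, 37.7 and 72.9 CPM at 25°C. Its log2 fold change at 34°C was the largest of the 9 types, 1.89 ± 0.73 (SE, adjusted p = 0.181). U5, which contacts the exons at both splice sites, had 1102, 412 and 51.6 CPM at 4°C, 958, 1011 and 1002 at 10°C, 981, 2647 and 1394 at 34°C and 650.1, 192 and 471 at 37°C, against 461, 436 and 606 CPM at 25°C. The 10°C libraries lay close together and above those at 25°C, and at 34°C the log2 fold change was 1.74 ± 0.82 (SE, adjusted p = 0.246). U6, the catalytic RNA, had 43.0, 27.4 and 14.2 CPM at 4°C, 50.2, 34.0 and 44.0 at 10°C, 69.5, 43.7 and 42.3 at 34°C and 44.4, 35.0 and 60.2 at 37°C, against 40.3, 25.9 and 35.7 CPM at 25°C. U6 had the smallest change at 34°C, 0.61 ± 0.34 (SE, adjusted p = 0.305), and the highest library there was replicate 1, whereas replicate 2 was highest for the other 8 types.

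Among the minor spliceosome types, U11 (3L, 3893056 to 3893330, 275 bp) had 217, 180.2 and 32.7 CPM at 4°C, 339, 193 and 354 at 10°C, 319, 461 and 283 at 34°C and 158, 122 and 165 at 37°C, against 215, 130.0 and 175 CPM at 25°C. At 34°C its log2 fold change was 1.03 ± 0.52 (SE, adjusted p = 0.268). U12 (3L, 16653769 to 16654006), the counterpart of U2, had 73.9, 71.8 and 11.9 CPM at 4°C, 66.3, 52.7 and 70.4 at 10°C, 65.2, 173 and 93.9 at 34°C and 52.0, 39.8 and 50.0 at 37°C, against 63.1, 32.8 and 63.5 CPM at 25°C. Replicate 1 at 34°C was only just above the control libraries, and the log2 fold change was 1.07 ± 0.55 (SE, adjusted p = 0.277). U4atac (3R, 5195004 to 5195163) had 84.8, 49.0 and 3.32 CPM at 4°C, 97.5, 76.5 and 81.7 at 10°C, 119, 203 and 103 at 34°C and 50.1, 20.9 and 58.6 at 37°C, against 44.8, 32.1 and 75.3 CPM at 25°C. The log2 fold change of U4atac at 34°C, 1.49 ± 0.76 (SE, adjusted p = 0.275), was near that of U1. snRNA:LU, in an intron of FASN2, stayed between 0 and 3.03 CPM and did not pass the filter on low counts in the fit of all 15 libraries.

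7SK, the inhibitor of P-TEFb, was counted on snRNA:7SKa (3R, 7474553 to 7474996, minus strand, 444 bp). snRNA:7SKa was the only 7SK gene among those chosen by symbol. The 7SK row had 2264, 1831 and 1019.5 CPM at 4°C, 2836, 1666 and 2595 at 10°C, 2501, 4702 and 2774 at 34°C and 1610.5, 1487 and 1945 at 37°C, against 1719, 1074 and 1636 CPM at 25°C. At 34°C all 3 libraries were above 25°C and the log2 fold change was 1.17 ± 0.31 (SE, adjusted p = 0.084), the smallest p of any type. At 10°C replicate 2 lay among the controls, and the log2 fold change was 0.68 ± 0.31 (SE, adjusted p = 0.197).

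**Figure D2:**
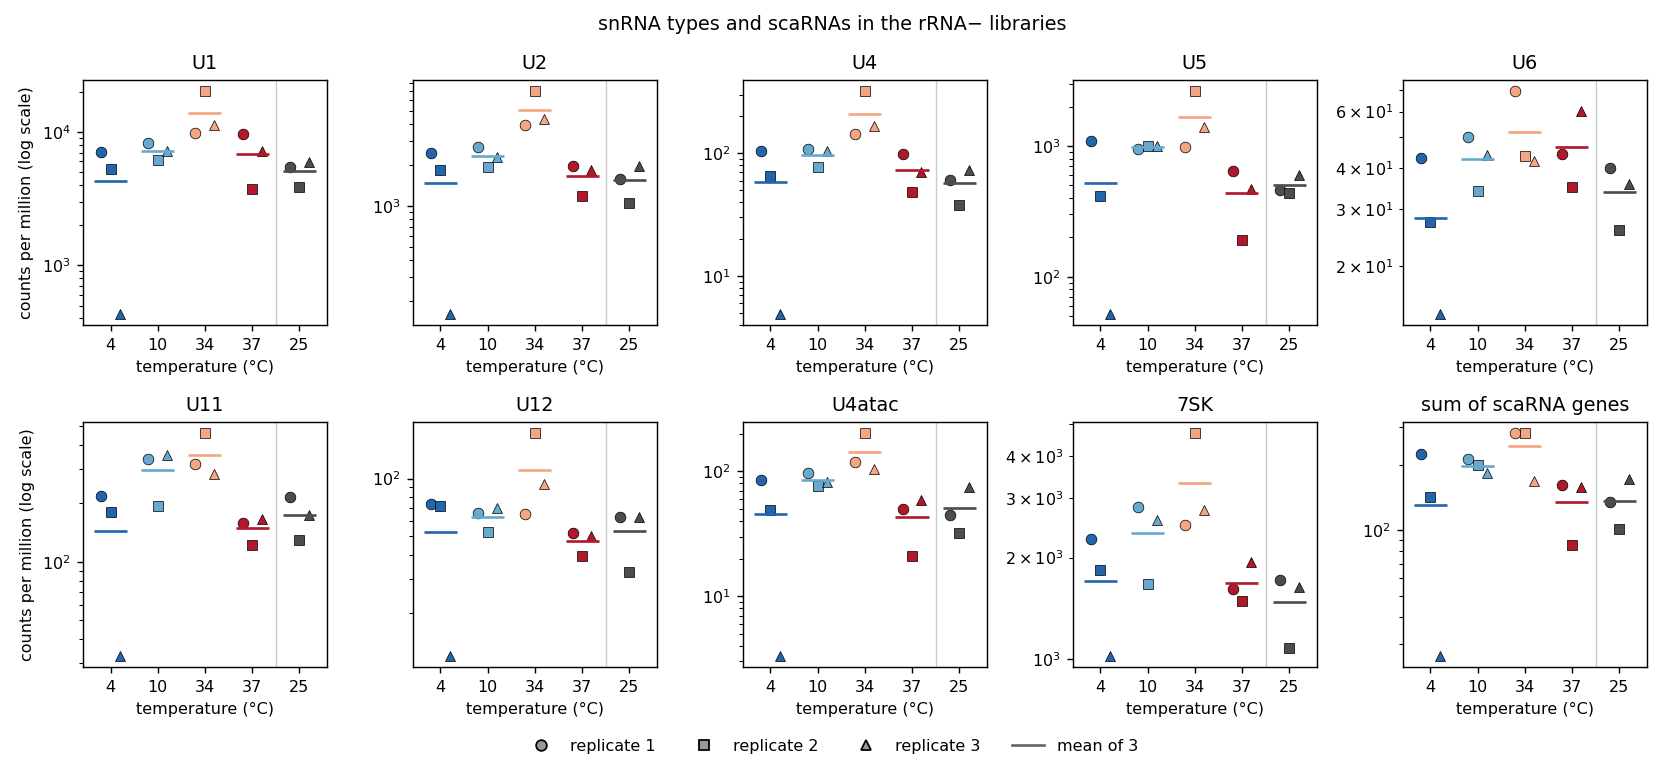
TMM-scaled CPM (log scale) of each snRNA type and of the scaRNA sum in the 15 rRNA− libraries, by temperature, with 25°C at the right of each panel, where symbols are replicates and bars the mean of 3. For all 9 snRNA types every 34°C library lies above every 25°C library, and 4°C replicate 3 is the lowest library in all 10 panels.

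4°C replicate 3 was the lowest library for all 9 types and for the scaRNA sum, and 34°C replicate 2 the highest for 9 of these 10. The fold changes of the types at 34°C given here all include 34°C replicate 2, with 20263 CPM of U1 and 173 of U12. Replicates 1 and 3 at 34°C had 9887 and 11236 CPM of U1 and 65.2 and 93.9 of U12. Across the 15 libraries U1 spanned 47.1-fold with 4°C replicate 3 and 5.40-fold without it, 7SK 4.61-fold and 4.38-fold, and U6 4.91-fold and 2.69-fold. The spread of 7SK was thus the smallest of the types with that library, and without it those of U6 and of U11 (3.77-fold) were smaller. When that library was left out of the fit, the fold changes at 34°C stayed the same and their standard errors fell, and 4 types passed the test: U2 at 1.73 ± 0.28 (SE, adjusted p = 0.0071), U4 at 1.89 ± 0.38 (SE, adjusted p = 0.0323), 7SK at 1.17 ± 0.27 (SE, adjusted p = 0.0375) and U1 at 1.44 ± 0.34 (SE, adjusted p = 0.0435). U11 missed it at an adjusted p of 0.0521. In this fit 1.3% of all rows were called higher, and all 9 types and 24.3% of all rows had an unadjusted p under 0.05. By single genes 8 were called higher, against 1.32% of all genes: U2:34ABa, U2:34ABb, U2:34ABc, U4:39B, U4:38AB, U5:38ABa, 7SKa and scaRNA:PsiU2-38.40.42. A fit of only the 6 libraries at 34°C and 25°C called U2 alone among the types, at a log2 fold change of 1.78 and an adjusted p of 0.0437, with 0.735% of rows called higher, and 5 single genes (U2:34ABa, U2:34ABb, U2:34ABc, U4:38AB and U5:23D), with 0.776% of all genes.

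**Figure D3:**
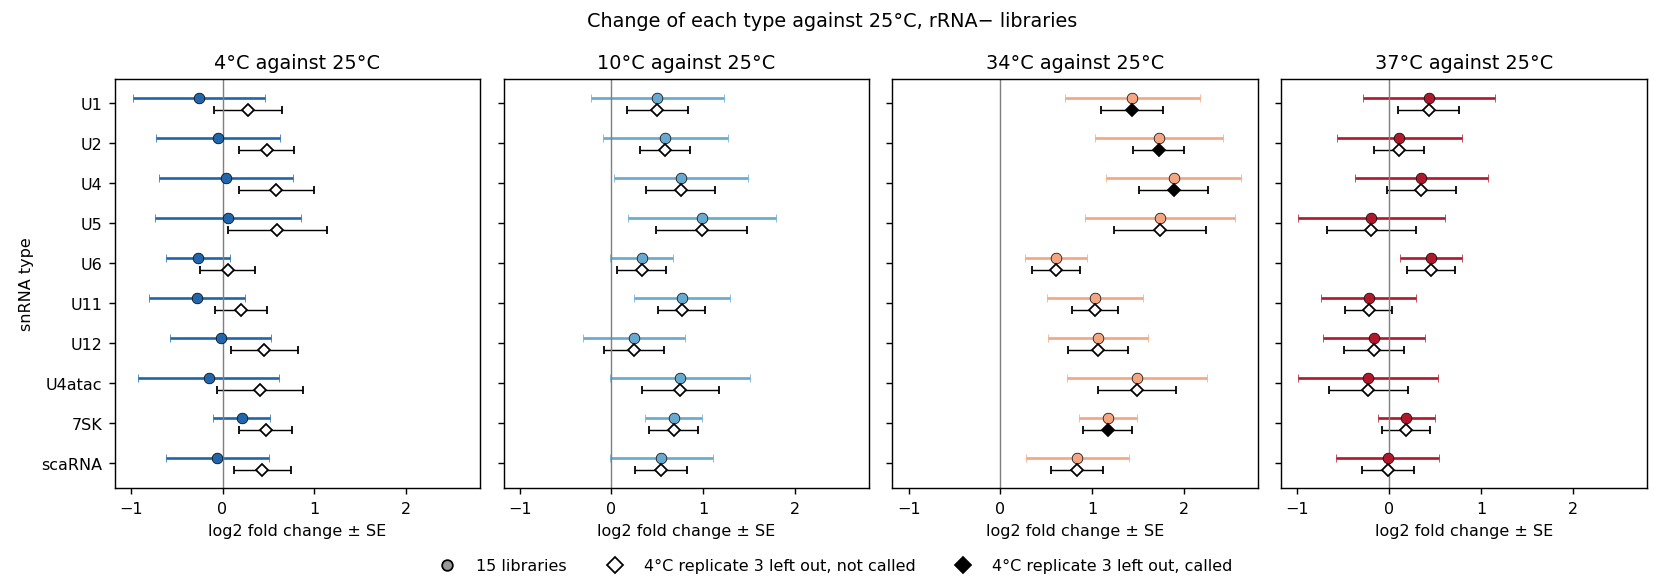
Log2 fold change against 25°C (± SE) of each type at 4°C, 10°C, 34°C and 37°C in the rRNA− libraries, where circles are the fit of all 15 libraries and diamonds the fit without 4°C replicate 3, filled where the type was called. The 9 snRNA types at 4°C are all above 0 without that library, the 34°C values run from 0.61 to 1.89 in the main fit with 0 types called, and U1, U2, U4 and 7SK are called without that library.

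Other structured RNAs moved with the snRNAs. At 34°C the snoRNAs had 11361, 15432 and 8945 CPM of the library total, against 5392, 3885 and 6799 at 25°C, and 7SL had 121848, 144059 and 97573 against 74601, 41731 and 81398. The groups did not overlap for either. Nuclear rRNA took 52.6%, 42.0% and 51.9% of the counts at 34°C, against 44.2%, 44.4% and 52.4% at 25°C. Scaled to the snoRNA sum of each library, another alternative chosen after the values were seen, the median of all genes at 34°C shifted to a log2 fold change of -1.45, and the 9 snRNA types and the scaRNA sum lay between -0.74 and 0.47, 5 of these 10 above 0. U2 stood at 0.34 on this scale, 7SK at -0.25 and U6 at -0.74, and none was called. At 4°C, 10°C and 37°C the same scaling moved the median of all genes to 1.53, -0.74 and -0.11. The shift at 4°C includes replicate 3, with 704 CPM of snoRNA, against 9276 and 6577 in replicates 1 and 2. The scaling was not repeated without that library, so the direction at 4°C is uncertain. The snRNA types were thus higher at 34°C relative to the median gene, and not all of them were higher relative to the snoRNAs. The part of these RNAs in the result was not tested.

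**Figure D4:**
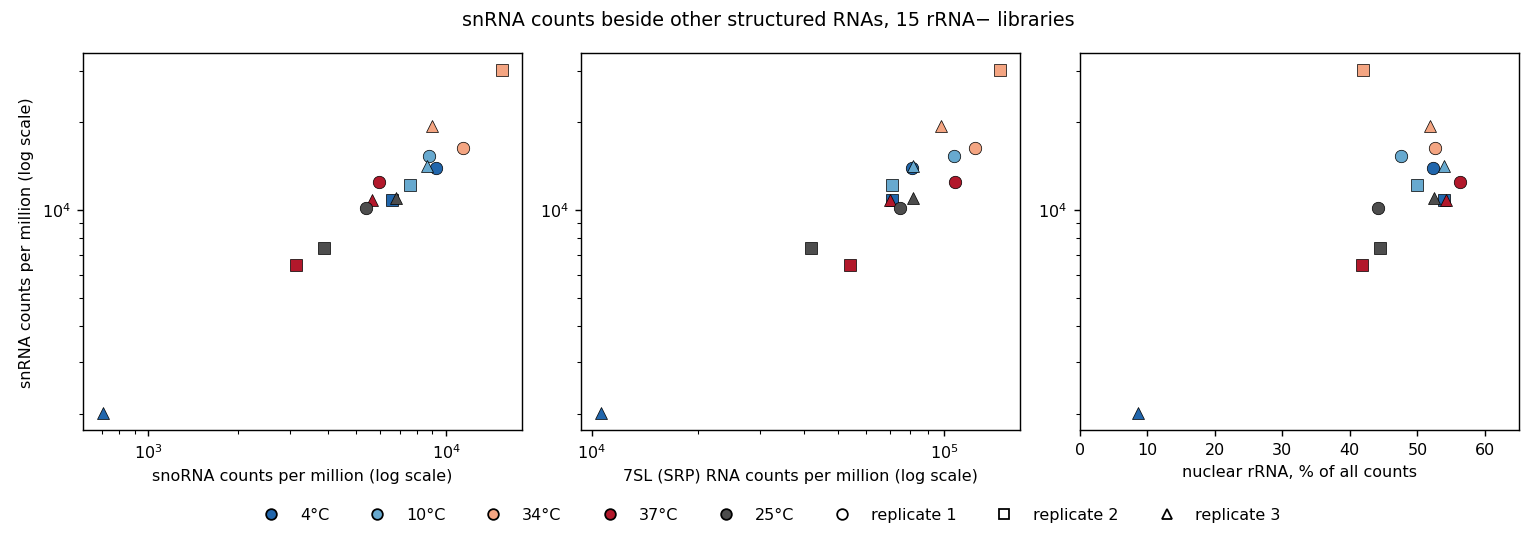
Summed snRNA CPM of the library total (log scale) against snoRNA CPM, 7SL RNA CPM (both log scale) and the percent of counts on nuclear rRNA in the 15 rRNA− libraries, where colours are temperatures and symbols replicates. 34°C replicate 2 is at 30151 CPM of snRNA with the most snoRNA and 7SL, and 4°C replicate 3 at 2015 with the least of all 3 measures.

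At 10°C the 9 types all had positive log2 fold changes, from 0.25 for U12 to 0.98 for U5, with a median of 0.68. The libraries did not overlap with those at 25°C for 4 types (U1, U4, U5 and U4atac), where 12.4% of all genes did not overlap in that direction. None was called, against 0.865% of rows called higher and 1.29% lower, and 1 of the 9 and 24.7% of rows had an unadjusted p under 0.05. DESeq2's Wald test called 0 types. With only the 6 libraries of this comparison U5 was called, at a log2 fold change of 1.03 and an adjusted p of 0.0182, with 0.74% of rows called higher, and by single genes U5:34A, U5:63BC and U5:38ABa higher and U6:96Ab lower, with 0.771% and 1.14% of all genes called in these directions. At 4°C the types ran from -0.28 for U11 to 0.21 for 7SK, and every group overlapped with 25°C. The smallest p were those of U6, -0.27 ± 0.35 (SE, adjusted p = 0.999), and 7SK, 0.21 ± 0.31 (SE, adjusted p = 0.999). None was called, where 0.0102% of rows were called higher and 0% lower. The direction at 4°C turned on replicate 3. Without it all 9 types had positive values, from 0.06 for U6 to 0.60 for U5 with a median of 0.46, and both remaining libraries were above 25°C for 7SK and U12, as for 10.3% of all genes. The scaRNA sum likewise went to 0.43, against -0.06 with replicate 3. snRNA:LU, which is not among the 9 types but passed the filter on low counts in that fit, stood at -0.11 ± 0.54 (SE). None was called in that fit, where 0.01% of rows were called higher and 0.01% lower, and the smallest p was that of 7SK, 0.47 ± 0.29 (SE, adjusted p = 0.807). At 37°C the values ran from -0.23 for U4atac to 0.46 for U6, all with overlap, and U6 had the smallest p, with a log2 fold change of 0.46 ± 0.34 (SE, adjusted p = 0.517). None was called against 2% of rows called higher and 0.529% lower. No type had an unadjusted p under 0.05 at 4°C or 37°C, with or without 4°C replicate 3, where 4.19% and 18.4% of all rows did in the fit of 15 libraries, and DESeq2 called none there. Without 4°C replicate 3, 0 types and 0 single genes were called at 10°C or 37°C. In the table of types that fit called 1.25% of rows higher and 1.42% lower at 10°C, and 2.38% higher and 0.532% lower at 37°C, and in the table of single genes 1.25% and 1.42% at 10°C, and 2.34% and 0.531% at 37°C.

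The 37°C libraries were also set against those at 34°C, a comparison added after the values were seen. At 37°C 8 of the 9 types were lower than at 34°C in every library, with log2 fold changes from -0.98 for 7SK to -1.93 for U5, and U6 overlapped at -0.15. Groups did not overlap, with 37°C below, in 11% of all genes. No type was called with all libraries in the edgeR fit, where 0% of rows were called lower, and 6 types and 13.3% of rows had an unadjusted p under 0.05. Without 4°C replicate 3 in the fit, U2 and U11 were called lower at 37°C, at -1.62 and -1.25, and by single genes U2:34ABb, U2:34ABc, U4:38AB, U5:38ABb and U11. In that fit 0.171% of rows and 0.2% of single genes were called lower.

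The types kept their proportions to a different degree. Their shares of the summed snRNA counts had medians of 54.9% for U1, 17.4% for U2, 16.5% for 7SK, 5.70% for U5, 1.77% for U11, 0.692% for U4, 0.506% for U4atac, 0.491% for U12 and 0.324% for U6. In 4°C replicate 3 the make-up differed as well, with 59.0% 7SK and 24.9% U1, where the other 14 libraries had 11.3% to 21.6% 7SK and 52.3% to 67.6% U1. Of the 9 ratios computed, that of U4 to U2 varied least, at 0.0305 to 0.0503 U4 counts for each U2 count in the 15 libraries. The ratio of 7SK to U2 was 0.636, 0.675 and 0.639 at 34°C, against 1.09, 1.02 and 0.829 at 25°C, and that of U6 to U2 0.0177, 0.00627 and 0.00975 at 34°C, against 0.0256, 0.0245 and 0.0181 at 25°C. The ratio of U1 to U2 was likewise lower at 34°C, at 2.51, 2.91 and 2.59, against 3.44, 3.66 and 3.03 at 25°C. The groups did not overlap for these ratios or for that of the scaRNA sum to U2, 4 of the 9 ratios computed, and for each of the 4 the exact permutation test gave p = 0.1 (2-sided, adjusted p = 0.225 over the 9), the smallest that 3 libraries against 3 allow.

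Single genes of the types gave 0 calls in the main fit at any temperature, of 33 that passed the filter on low counts. The other 15 genes averaged 0 to 6.27 counts. At 34°C 24 of the 33 were above 25°C in every library, beside 13.4% of all genes, and 0.67% of all genes were called higher. An unadjusted p under 0.05 was found for 13 of the 33 at 34°C, beside 21.6% of all genes. For 4°C, 10°C and 37°C the counts were 1, 2 and 1 of the 33, beside 4.19%, 24.7% and 18.5% of all genes. DESeq2's Wald test called 1, 3 and 1 there. At 4°C the genes had a median log2 fold change of -0.06, with 10 of 33 above 0, and without replicate 3 a median of 0.41, with 31 of 35 above 0 and 0 called, where all genes stood at -0.01 and 0.00. The share of all genes called higher was 0.0102% at 4°C, 0.863% at 10°C and 1.99% at 37°C, and that called lower 0%, 1.29%, 0.163% and 0.528% at 4°C, 10°C, 34°C and 37°C. The Wald test called 0.1%, 1.79%, 1.9% and 2.74% of all genes higher at 4°C, 10°C, 34°C and 37°C, and 1.61% lower at 10°C. U5:38ABa, a minor U5 copy, lies in an intron of sick on the opposite strand. As the use of strand in counting is not stated, its reads cannot be told apart from those of sick. U5:38ABa had the smallest p at 34°C. It had 5.47, 1.44 and 0.664 CPM at 4°C, 7.12, 7.03 and 5.45 at 10°C, 7.07, 24.9 and 11.5 at 34°C and 5.24, 1.82 and 5.31 at 37°C, against 1.41, 2.60 and 3.01 CPM at 25°C. At 34°C its log2 fold change was 2.64 ± 0.63 (SE, adjusted p = 0.0583), just short of a call, and it was called by DESeq2's Wald test (6 genes in all), without 34°C replicate 1 (0.791% of all genes called higher), with DESeq2 size factors (0.782%) and with library totals (0.945%). It also had the smallest p at 10°C, where its log2 fold change was 1.49 ± 0.65 (SE, adjusted p = 0.174) and all 3 libraries were above those at 25°C.

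The other U5 genes followed their sum. U5:63BC, the main copy, had 700.1, 254 and 29.2 CPM at 4°C, 567, 606 and 599.8 at 10°C, 590.2, 1797 and 867 at 34°C and 425, 113 and 265 at 37°C, against 285, 241 and 357 CPM at 25°C. U5:23D, in an intron of FASN2, had 159, 66.9 and 8.85 CPM at 4°C, 136, 161 and 150.5 at 10°C, 158, 314 and 209 at 34°C and 84.6, 27.5 and 95.1 at 37°C, against 72.5, 66.8 and 94.2 CPM at 25°C. U5:34A had 112, 47.3 and 6.64 CPM at 4°C, 119.8, 119.8 and 112 at 10°C, 103, 262 and 150.2 at 34°C and 64.5, 21.6 and 44.4 at 37°C, against 48.4, 46.5 and 69.1 CPM at 25°C. For each of these the 34°C libraries were all higher than the 25°C libraries. U5:14B (X, 16254008 to 16254117) had 115, 38.1 and 5.98 CPM at 4°C, 113, 105 and 124 at 10°C, 109, 224 and 137 at 34°C and 65.3, 24.8 and 55.7 at 37°C, against 51.2, 71.2 and 73.6 CPM at 25°C. Their log2 fold changes at 34°C ran from 1.26 for U5:14B to 1.88 for U5:63BC. U5:38ABb averaged 42.6 counts and stood at 1.53 ± 0.67 (SE, adjusted p = 0.215) on that scale.

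Both U4 genes above the count limit had higher values at 34°C than at 25°C in every library. U4:39B had 84.1, 49.9 and 4.21 CPM at 4°C, 78.3, 57.4 and 79.2 at 10°C, 111, 256 and 124 at 34°C and 81.3, 38.9 and 59.0 at 37°C, against 50.1, 30.9 and 57.0 CPM at 25°C. U4:38AB, which lies within sick beside U5:38ABa, had 20.9, 15.6 and 0.664 CPM at 4°C, 28.5, 18.7 and 25.6 at 10°C, 32.8, 66.4 and 41.9 at 34°C and 17.3, 9.10 and 11.5 at 37°C, against 10.2, 6.60 and 15.9 CPM at 25°C. In that order their log2 fold changes at 34°C were 1.84 ± 0.72 (SE, adjusted p = 0.188) and 2.12 ± 0.72 (SE, adjusted p = 0.14).

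For U1 and U2 the copies are given as counted, with the reserve stated above. U1:95Ca had 3346, 1701 and 152 CPM at 4°C, 3951, 2951 and 3441 at 10°C, 4223, 6790.1 and 3912 at 34°C and 4323, 1215 and 2305 at 37°C, against 2593, 1842 and 2830.1 CPM at 25°C. U1:95Cb had 3359, 1714 and 142 CPM at 4°C, 3952, 2955 and 3430.2 at 10°C, 4243, 7469 and 3904 at 34°C and 4342, 1222 and 2301 at 37°C, against 2605, 1848 and 2826 CPM at 25°C. The values of this pair were nearly equal in every library. U1:21D had 77.9, 1725 and 136 CPM at 4°C, 50.2, 0 and 95.99 at 10°C, 1024, 5400.5 and 3047 at 34°C and 655, 1219.7 and 2289.6 at 37°C, against 16.5, 0 and 91.7 CPM at 25°C. It had the smallest p of all genes of the set at 4°C and 37°C, with log2 fold changes of 4.18 ± 1.81 (SE, adjusted p = 0.999) and 5.28 ± 1.90 (SE, adjusted p = 0.167), and the U1 sum, which does not depend on the split, stood at -0.26 and 0.43 there. U1:95Cc (3R, 23826334 to 23826497) had 241, 155 and 0 CPM at 4°C, 355, 209 and 196 at 10°C, 388, 577 and 356 at 34°C and 325, 89.8 and 267 at 37°C, against 198, 163 and 236 CPM at 25°C. U1:82Eb, whose counts were 98.9% kept in the equalized set, averaged 29.1 counts and was higher at 34°C than at 25°C in every library, by 1.41 ± 0.59 (SE, adjusted p = 0.196).

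U2:34ABb had 789, 643 and 52.9 CPM at 4°C, 838, 618 and 717 at 10°C, 1369.7, 2435 and 1518 at 34°C and 669, 432 and 650.1 at 37°C, against 571, 357 and 675 CPM at 25°C. U2:34ABc had 787, 631 and 53.6 CPM at 4°C, 843, 619.6 and 708 at 10°C, 1369, 2457 and 1508 at 34°C and 669, 427 and 648 at 37°C, against 569.8, 362 and 678 CPM at 25°C. As with the U1 pair, the values of these copies were nearly equal. U2:34ABc lies opposite the antisense gene asRNA:CR45330. The kits kept strand, but whether counting used it is not stated, so its reads cannot be told apart from those of that gene. U2:34ABa had 489, 325 and 33.2 CPM at 4°C, 512, 429 and 535 at 10°C, 741, 1341 and 742 at 34°C and 463, 181 and 294 at 37°C, against 287, 210.1 and 365 CPM at 25°C. At 34°C the log2 fold changes of the 3 copies were 1.73, 1.73 and 1.71. U2:14B had 339, 119 and 0 CPM at 4°C, 0, 272 and 336 at 10°C, 452, 21.7 and 569 at 34°C and 81.7, 140.1 and 228 at 37°C, against 69.3, 125 and 127 CPM at 25°C. U2:38ABa had 33.3, 127 and 20.1 CPM at 4°C, 494, 0 and 0 at 10°C, 0, 707 and 0 at 34°C and 81.9, 0 and 0 at 37°C, against 77.0, 0 and 127 CPM at 25°C. These last copies were at 0 in some libraries and high in others of the same temperature, and U2:38ABb averaged 1.93 counts.

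For U6 the share-out decides every value of a single gene. U6:96Aa had 43.0, 0 and 14.2 CPM at 4°C, 50.2, 0 and 0 at 10°C, 0, 0 and 42.3 at 34°C and 0, 35.0 and 0 at 37°C, against 0, 0 and 0 CPM at 25°C. U6:96Ab had 0, 27.4 and 0 CPM at 4°C, 0, 0 and 0 at 10°C, 0, 43.7 and 0 at 34°C and 44.4, 0 and 60.1 at 37°C, against 40.3, 25.9 and 35.7 CPM at 25°C. U6:96Ac, which had counts in 3 libraries, had 34.0 and 44.0 CPM in replicates 2 and 3 at 10°C and 69.5 CPM in replicate 1 at 34°C, and was at 0 in the other libraries. DESeq2's Wald test called U6:96Aa at all 4 temperatures, U6:96Ac at 10°C and 34°C and U6:96Ab at 10°C, while the U6 sum was not called at any temperature by either tool.

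The scaRNA sum had 225, 143 and 26.3 CPM at 4°C, 212, 199 and 184 at 10°C, 281, 281 and 169 at 34°C and 161, 85.5 and 158 at 37°C, against 135, 102 and 173 CPM at 25°C. Replicate 3 at 34°C fell within the controls, whose highest library was just above it, so the groups overlapped, and the log2 fold change was 0.84 ± 0.56 (SE, adjusted p = 0.394). scaRNA:MeU5-C46 (3R, 7472907 to 7473222, 316 bp), named for a site of U5 and the guide with the most counts, had 95.3, 84.2 and 18.8 CPM at 4°C, 107, 80.6 and 81.7 at 10°C, 144, 137 and 93.9 at 34°C and 78.7, 60.5 and 90.9 at 37°C, against 76.1, 46.7 and 83.9 CPM at 25°C. All 3 libraries at 34°C were above 25°C, with a log2 fold change of 0.86 ± 0.45 (SE, adjusted p = 0.282). scaRNA:PsiU1-6 (3R, 9713607 to 9713765), a guide for U1, had 80.3, 33.2 and 4.21 CPM at 4°C, 60.4, 69.4 and 61.6 at 10°C, 65.4, 51.3 and 35.0 at 34°C and 45.9, 13.4 and 40.2 at 37°C, against 32.5, 35.8 and 51.0 CPM at 25°C. Per kilobase it lay above MeU5-C46, at 284 against 265 CPM. Its highest library was 4°C replicate 1, and its log2 fold change at 34°C was the smallest of the 8 guides tested, 0.35 ± 0.72 (SE, adjusted p = 0.8).

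Of the guides for U2, scaRNA:MeU2-48 had 17.3, 4.04 and 1.77 CPM at 4°C, 16.4, 24.9 and 15.5 at 10°C, 16.4, 28.5 and 10.1 at 34°C and 6.12, 1.82 and 7.96 at 37°C, against 7.74, 5.56 and 11.2 CPM at 25°C. scaRNA:PsiU2-55 had 12.4, 8.94 and 0.221 CPM at 4°C, 8.67, 10.3 and 7.96 at 10°C, 21.7, 18.8 and 6.27 at 34°C and 12.0, 3.64 and 9.73 at 37°C, against 8.62, 7.29 and 9.47 CPM at 25°C. Both overlapped with 25°C at 34°C. scaRNA:PsiU2-38.40.42 averaged 35.1 counts and was above 25°C in all 3 libraries at 34°C, by 1.68 ± 0.58 (SE, adjusted p = 0.139), and scaRNA:MeU2-G25, at 10.1 counts, by 2.36 ± 0.87 (SE, adjusted p = 0.155). The other scaRNA genes with counts averaged 0.133 to 7.93.

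Most guide genes lie inside other genes. The annotation places 14 of the 17 scaRNA genes in an intron of a protein-coding gene on the same strand, MeU2-48 in hfp (a splicing regulator), PsiU2-55 in Prp8 (the U5 snRNP protein at the core of the spliceosome) and PsiU5-44 in tra2 (a splicing regulator of sex determination) among them. For the 8 guide and host pairs in which both passed the filter, the guides had log2 fold changes at 34°C of 0.35 to 2.36, with a median of 1.27, and their hosts -0.72 to 0.02, with a median of -0.29. MeU5-C46 stood at 0.86 and its host CG1142 at -0.72, and PsiU2-38.40.42 stood at 1.68 and its host bur at -0.32. None of the 8 hosts was called at any temperature, and the host that came closest, bur at 10°C, was at -0.39 (adjusted p = 0.0391), under the 2-fold limit. At 10°C the same guides had a median of 0.70 and the hosts one of -0.31. Of the snRNA genes 11 lie in an intron on the same strand, and for the 8 with a tested host the 6 host genes had log2 fold changes of -0.28 to 0.33 at 34°C, among them FASN2 (0.24), which holds U5:23D (1.54), and cno (-0.28), which holds U4atac (1.49).

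The proteins that bind, build and modify snRNAs were followed through lists of 93 symbols, 88 of which matched a listed gene (86 genes in all). The match ignored letter case, and SmG was matched to smg, a different gene that is not an Sm protein. These counts and the values of the Sm and Lsm list include smg, and SmG itself was not followed. None was called by edgeR at any temperature in the rRNA− libraries, and at 34°C each list held 2 to 5 genes with an unadjusted p under 0.05, which 21.6% of all genes had. At 34°C the median log2 fold change was -0.11 for the 13 genes tested of the Sm and Lsm list, smg among them. The Sm and Lsm proteins form the rings that bind the snRNAs. The median was -0.01 for 23 snRNP-specific proteins, -0.18 for 14 factors of snRNP assembly and -0.27 for 22 factors of snRNA transcription and 3′ processing. For the 5 proteins of the 7SK particle and P-TEFb it was -0.24, and for 8 proteins of the scaRNP and box RNA particles 0.07. The 3 proteins of the U7 particle and histone mRNA stood at -0.79, where all genes stood at -0.06. Within the Sm ring SmB had 61.7 CPM on average at 34°C and was above every 25°C library, which averaged 35.4 CPM, with a log2 fold change of 0.80 ± 0.17 (SE, adjusted p = 0.0380), under the 2-fold limit. In the polyA+ libraries SmB had 189 CPM at 34°C against 186 at 25°C, with overlap and a log2 fold change of 0.03 ± 0.57 (SE, adjusted p = 0.998). hoip, a U4-binding protein, was at 0.57 ± 0.13 (SE, adjusted p = 0.0489) in the rRNA− libraries and at -0.03 ± 0.55 (SE, adjusted p = 0.998) in the polyA+ libraries. The difference between the library types was 0.78 ± 0.62 (SE, adjusted p = 1) for SmB and 0.61 ± 0.57 (SE, adjusted p = 1) for hoip. SmD3 had negative values in both kinds of library at 34°C, -0.81 ± 0.19 (SE, adjusted p = 0.0554) in rRNA− and -0.63 ± 0.35 (SE, adjusted p = 0.749) in polyA+. Lsm11, a subunit of the U7 particle, had 2.44 CPM at 34°C against 5.73 at 25°C, a log2 fold change of -1.22 ± 0.30 (SE, adjusted p = 0.0592), and stood at -0.99 ± 0.56 (SE, adjusted p = 0.750) in the polyA+ libraries. It was the only gene of the lists called without 4°C replicate 3, at -1.22 ± 0.28 (SE, adjusted p = 0.0383), where 0.22% of all genes were called lower at 34°C. At 10°C bin3, the enzyme that caps 7SK, was at -0.60 ± 0.17 (SE, adjusted p = 0.0483) in rRNA− libraries. In polyA+ libraries it was at 0.19 ± 0.78 (SE, adjusted p = 0.987). The polyA+ libraries that stood apart in Act88F and 7SL include replicates 2 and 3 at 34°C and replicate 2 at 10°C. No 25°C library was among them. In those replicates that difference and temperature cannot be told apart for the polyA+ values of these genes.

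The polyA+ libraries hold what is left of these RNAs after selection. Summed snRNA had a median of 12186 CPM of the library total in the rRNA− libraries (2015 to 30151) and of 5.19 in the polyA+ libraries (1.18 to 10.7). Every rRNA− library lay above every polyA+ library. Set against the polyA+ library of the same temperature and number, the log2 ratio was 11.2 ± 1.22 (SD, n = 15), and the exact sign-flip test over these 15 sets gave an adjusted p of 6.1e-05 (2-sided), the smallest it allows. Since the shared number need not mean shared flies, the libraries were also compared without pairing, 15 against 15, an alternative chosen after the values were seen, and the permutation test gave an adjusted p of 2e-05 (2-sided), the smallest that 100000 permutations can give. The same values were found for each of the 9 types and for the scaRNA sum. Library type goes with kit, sequencer, read length before trimming and RNA amount (0.3 µg for rRNA− and 0.8 µg for polyA+). These cannot be told apart.

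The types did not lose counts alike. Over all libraries of a kind, the rRNA− share was 11482-fold the polyA+ share for U1, 3008-fold for U2, 1764-fold for 7SK, 121-fold for U12 and 97.3-fold for U11. The genes of U11 and U12 lie in introns of Fie and Baldspot on the opposite strand. As the use of strand in counting is not stated, reads of those genes cannot be told apart from reads of U11 and U12. U4atac had 0 counts in the 15 polyA+ libraries, so that its rRNA− share was at least 8635-fold higher with 3 counts over the group as the floor. U5 had 7 polyA+ counts in all, U6 had 3 and U4 had 12. The order also differed. Per kilobase U1 exceeded U11 in 15 of 15 rRNA− libraries and was the highest type in all of them. U11 exceeded U1 in 10 of 15 polyA+ libraries and was the highest type in 10. Its median over the polyA+ libraries was 7.26 CPM per kilobase, against 3.88 for U1. The 5 polyA+ libraries with U1 above U11 per kilobase were those that stood apart in Act88F and 7SL. The part of that difference in the order was not tested. U11 made up 1.62% of the snRNA counts of the rRNA− libraries and 40.6% of those of the polyA+ libraries, and U1 56.3% and 12.0%.

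**Figure D5:**
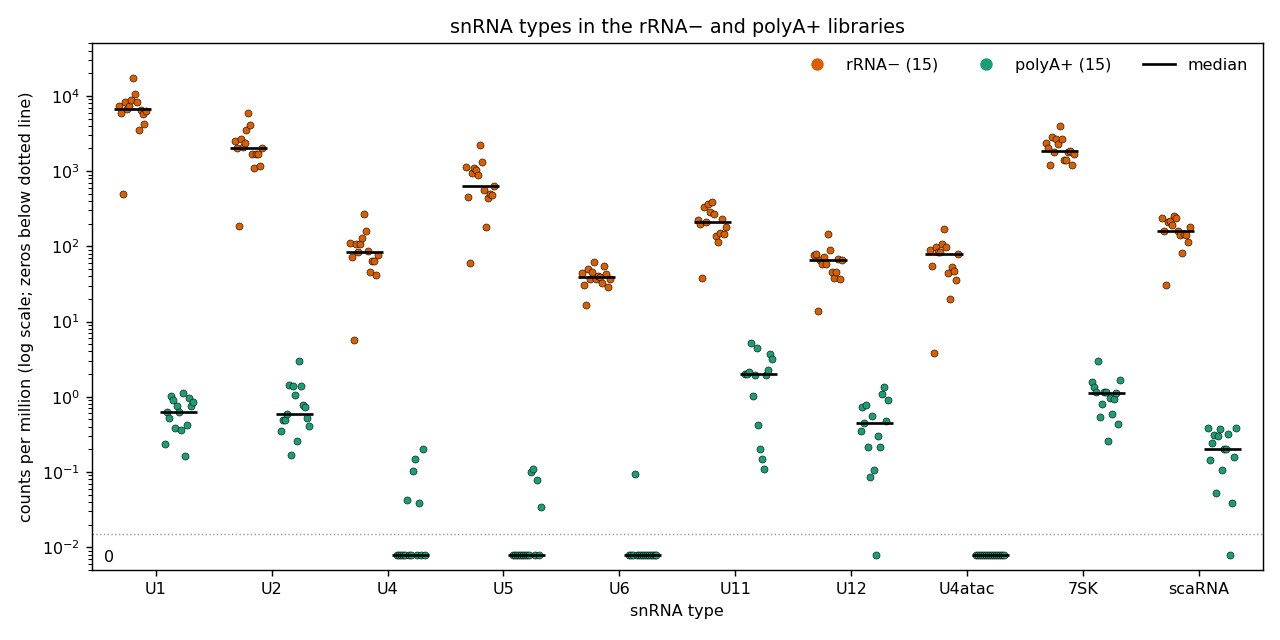
CPM of the library total (log scale, zeros drawn below the dotted line) of each snRNA type and the scaRNA sum in the 15 rRNA− and the 15 polyA+ libraries, where each point is a library and the bar is the median. Every type has its rRNA− points above its polyA+ points.

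No snRNA or scaRNA gene and no type was called in the polyA+ libraries, where 7 genes and 5 types passed the filter. Called higher were 0% of all genes at 4°C and 10°C, 0.11% at 34°C and 5.11% at 37°C. Of the 5 types 1 had an unadjusted p under 0.05, beside 26.9% of all rows, U2 at 37°C, with 60, 26 and 20 counts, against 19, 13 and 12 counts at 25°C. All 3 libraries at 37°C were higher, where 21.4% of all genes did not overlap in that direction, and the log2 fold change was 2.14 ± 0.89 (SE, adjusted p = 0.145). U2:34ABc was called there by DESeq2's Wald test and without 37°C replicate 3, where 14.5% and 14.7% of all genes were called higher, but like the other U2 copies it shares reads. U11 had 3, 2 and 50 polyA+ counts at 37°C, against 58, 92 and 92 at 25°C, with overlap in CPM at a log2 fold change of -1.69 ± 1.16 (SE, adjusted p = 0.335). Replicates 1 and 2 at 37°C were among the polyA+ libraries that stood apart in Act88F and 7SL, and no 25°C library was. In those replicates that difference and temperature cannot be told apart, for U2 or for U11. The response to temperature was tested for a difference between library types over all 30 libraries, and 0 of 37 genes and 0 of 11 types were called at any temperature by an adjusted p under 0.05 in edgeR, as were 0% of all rows. At an unadjusted p under 0.05 there were 0, 1, 4 and 2 of the 37 genes at 4°C, 10°C, 34°C and 37°C, beside 0.912%, 2.16%, 3.41% and 13.6% of all genes. These counts include genes with 0 polyA+ counts, U4atac, LU and U5:34A among them, for which the test could not give a call. The difference for U4atac at 34°C had a standard error of 7037 in log2 units. For such genes the lack of a call says nothing on the response.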

How the data were processed

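Counts per gene were deposited by the authors for 30 libraries, from 85-bp reads (the 150-bp polyA+ reads were trimmed to match). The processing notes name STAR 2.7.7a, SAMtools, Salmon 1.4.0, R 4.2.2, DESeq2 and the build dm6. The methods describe stranded kits and Salmon abundances imported with tximport. Whether the deposited counts are that table, whether counting used strand and how reads that match several genes were shared out are not given in the sources used here. Members were taken by symbol, and the members and lists were chosen with earlier results of these data known. Nuclear rRNA genes (136) were left out. Low counts were filtered with filterByExpr, library sizes scaled by TMM, and each library type was fitted with its 15 libraries by edgeR 4.0.16 (quasi-likelihood, robust, R 4.3.3). Fits were made once with single genes and once with the copies of a type summed. The Benjamini-Hochberg adjustment ran over all rows, and a call needed an adjusted p under 0.05 and a fold of 2 in size. Standard errors were derived from the fold change and its F value. Genes described were the 25 with the highest mean and the member with the smallest p in each comparison. The labels give 3 biological replicates a temperature but no more on how pools were kept apart, so p-values measure the spread between these samples. The code was tested on simulated data. Alternatives were the authors' equalized counts, other size factors, DESeq2 1.42.0, no filter, 6 libraries, rRNA kept, a replicate block and leaving out each replicate. Deposited TPM values were not used. Positions came from the Ensembl annotation of the same build.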

Additional observations from a re-analysis of the deposited data

How the results depend on the processing

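The alternatives kept a count of 0 calls in nearly all settings. As the main count was 0, an exception could only add calls. The equalized counts hold 0.238% of the U1, 0.318% of the U2 and 0% of the U6 counts of the rRNA− libraries. With so few counts, that setting cannot decide on these types. In the rRNA− libraries at 34°C single genes called were 1 with DESeq2 size factors (0.782% of all genes called higher), 1 with library totals (0.945%), 6 with DESeq2's Wald test (1.9%), 5 with only the 6 libraries compared (0.776%), 8 with 4°C replicate 3 left out of the fit (1.32%), and 0 to 1 on leaving out a replicate of 34°C or 25°C in turn (1 without 34°C replicate 1, 0.791%). Types called at 34°C were 1 with the Wald test, 1 with the 6 libraries and 4 with 4°C replicate 3 left out. The Wald test called 1 gene at 4°C, 3 at 10°C and 1 at 37°C, all copies of U6. The 6 libraries at 10°C gave 4 genes (3 higher, 1 lower, beside 0.771% and 1.14% of all genes) and 1 type. In the polyA+ libraries at 37°C 1 gene was called by the Wald test, and 0 to 1 on leaving out a replicate (1 without 37°C replicate 3). Scaling to the snoRNA sum turned the log2 fold change at 34°C to -0.25 for 7SK and 7SKa, -0.74 for U6, -0.35 for U12, -0.40 for U11 and -0.56 for the scaRNA sum, at 10°C to -0.037 for 7SK and 7SKa, and at 4°C to 0.63 for U6. The value at 4°C includes replicate 3, which had the fewest snoRNA counts, and was not computed without it. Library totals turned 7SK at 37°C to -0.037, and the 150-bp reads turned U2:34ABb at 4°C in polyA+ libraries to 4.21. On leaving out a replicate in turn U6 at 4°C ran from -0.72 to 0.057 (above 0 without 4°C replicate 3), 7SK at 4°C from -0.051 to 0.47, U6:96Aa at 37°C from 0.00 to 9.25, and 7SK at 10°C in polyA+ libraries from -0.72 to 1.10. Apart from the scaling to snoRNAs and the library left out of the fit, the cause of these shifts was not tested. Counts of calls were 0 under every fit with the replicate number as a block, in which U4 at 34°C stood at 1.90 and U2 at 1.72. The correlation of same-numbered libraries' deviations ran from -0.46 to 0.34 between temperatures and from -0.26 to 0.44 between the 2 kinds of library. Between the kinds, the best match had the same number for all replicates at 4°C and 25°C. It also did for replicate 1 at 10°C and replicate 2 at 34°C, but for no replicate at 37°C. Whether the numbers pair the samples was not tested. The 2306608 to 6873601 counts of the rRNA− libraries gave the scaRNAs and U6 few counts, and the 1947 snRNA counts of all polyA+ libraries limit any comparison there.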
